A study of Mus musculus with 6 samples.

Results

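The immunity-related GTPases were described in NG2 lineage cells sorted from the spinal cord of mice, as 10 genes of the 38293 in the deposited count table. The genes were Igtp, Irgm1, Irgm2, Iigp1, Tgtp1, Tgtp2, Ifi47, Gm4951, F830016B08Rik and Gm12250, each matched to 1 row by its Ensembl identifier. They were chosen by gene symbol with the values of the EAE and Control libraries already known, so their levels and differences between these groups are a description and carry no test. Of all 16966 tested genes 13.3% were higher in every EAE library than in any Control library, and all 10 members were. Their summed level was 68.2 ± 17.4 CPM in Control and 1235 ± 1111 CPM in EAE (CPM, reads scaled to the size of each library; mean ± SD, n = 3 libraries per group here and throughout), an 18.1-fold difference, and 1 EAE library carried much of the EAE mean.

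Immunity-related GTPases are proteins that interferons induce in mouse cells, and interferon gamma is the classical inducer. They bind to the membrane of vacuoles that hold intracellular parasites or bacteria and help to break that membrane. The members with a lysine in the GTP-binding P-loop (called GKS after the last residues of the loop) load onto the vacuole, whereas those with a methionine there (GMS) sit on the membranes of the cell itself and hold the GKS proteins in check. In the inflamed central nervous system, interferon gamma comes mainly from T cells and natural killer cells, and glia respond to it.

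The study compared 3 Control libraries with 3 libraries from mice with EAE (experimental autoimmune encephalomyelitis, an induced immune attack on central nervous system myelin). All mice were female NG2-CreERTM:Rosa-tdTomato/+:Cx3cr1GFP/+ animals, so in both groups 1 allele of the chemokine receptor gene Cx3cr1 carried green fluorescent protein. Whole spinal cords were dissociated with actinomycin D, a transcription inhibitor, and live cells positive for tdTomato, the red fluorescent protein that an inducible Cre recombinase switches on in NG2-expressing cells, were sorted for bulk RNA sequencing. Precursors of oligodendrocytes and the mural cells of vessels both express NG2. RNA was amplified from total RNA before sequencing. The labels do not state the age of the mice, the time after induction of EAE or of the Cre, or whether a library came from 1 animal, so p-values measure only the spread between these libraries, which may be technical.

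The P-loop of each member was read from GENCODE transcripts, and the 24 bases that code for it are shown because they divide the family into its functional classes. Capitals mark the codon of the residue that gives the class its name. The codon is for methionine in Igtp, Irgm1 and Irgm2, and for lysine in the other 7 members. The loops of the 3 GMS genes were coded by the same 24 bases, and so were those of Tgtp1 and Tgtp2. All genes printed lie on chromosome 11.
Igtp, Irgm1 and Irgm2: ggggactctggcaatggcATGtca
Tgtp1 and Tgtp2: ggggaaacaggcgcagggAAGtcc
Gm12250: ggggagacaggggcagggAAGtcc
Ifi47: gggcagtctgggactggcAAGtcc

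Promoter windows from RefSeq (GRCm38.p6), each from 250 bases before to 50 bases after the start of the gene, were matched for 7 members, and stretches of them are shown because many of these members share an arrangement of 2 interferon elements. Windows were searched on both strands for TTCNNNGAA, the letters of the gamma-activated site (GAS), and for GAAANNGAA, the core letters of the interferon-stimulated response element (ISRE). Of the 7 windows, 5 held the GAS letters and 6 the ISRE letters, against 8.3% and 8.56% of all 32851 windows. In 4 members, Igtp, Irgm2, Tgtp1 and Tgtp2, the ISRE letters began 11 bases after the first base of the GAS letters, with 2 bases between the motifs. This spacing, which was looked for after these windows had been seen, occurred in 8 of all windows (0.0244%). The other 4 windows were those of Gm12185, a related gene, Adar, an interferon-induced RNA-editing enzyme, the olfactory receptor gene Olfr382 and the locus LOC115488470. The stretches of Igtp and Irgm2 are nearly identical, and those of Tgtp1, Tgtp2 and Gm12185 closely resemble each other. The windows of these genes are therefore not independent cases. The counts of motifs and of the spacing describe these windows and were not tested against all windows. Capitals mark the matched letters, and each stretch reaches 20 bases to either side of them, in the direction of transcription.
Igtp, chr11:58199491-58199550, plus strand: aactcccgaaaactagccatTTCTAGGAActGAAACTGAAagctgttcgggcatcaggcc
Irgm2, chr11:58214882-58214941, plus strand: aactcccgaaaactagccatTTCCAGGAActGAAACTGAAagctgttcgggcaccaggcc
Tgtp1, chr11:48992295-48992354, minus strand: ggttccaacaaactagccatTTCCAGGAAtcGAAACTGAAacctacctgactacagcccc
Tgtp2, chr11:49064254-49064313, minus strand: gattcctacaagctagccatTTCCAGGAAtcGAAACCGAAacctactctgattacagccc
Gm12185, chr11:48927229-48927288, minus strand: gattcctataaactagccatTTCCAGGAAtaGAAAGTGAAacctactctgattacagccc
Irgm1, chr11:48871416-48871470, minus strand: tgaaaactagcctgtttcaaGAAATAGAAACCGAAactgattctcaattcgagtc
Gm12250, chr11:58183733-58183826, plus strand: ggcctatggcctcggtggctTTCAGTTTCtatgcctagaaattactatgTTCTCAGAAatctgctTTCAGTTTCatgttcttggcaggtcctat

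The first base of the GAS letters lay 45 bases before the start of Igtp, 75 before Irgm2, 88 before Tgtp1, 81 before Tgtp2 and 61 before Gm12250. These are RefSeq starts, which differ for some genes from the GENCODE bounds given below. The stretches of Irgm1, Irgm2 and Tgtp1 lie inside the GENCODE bounds of their genes, and that of Gm12250 lies upstream of its GENCODE bounds. The Irgm1 window held the ISRE letters at 2 overlapping positions and no GAS letters, and that of Gm12250 held the ISRE letters at 2 positions on the opposite strand, 1 on each side of its GAS letters. The window of Ifi47 held neither motif. Letters found in a window describe the sequence only, and binding was not measured.

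**Figure D1:**
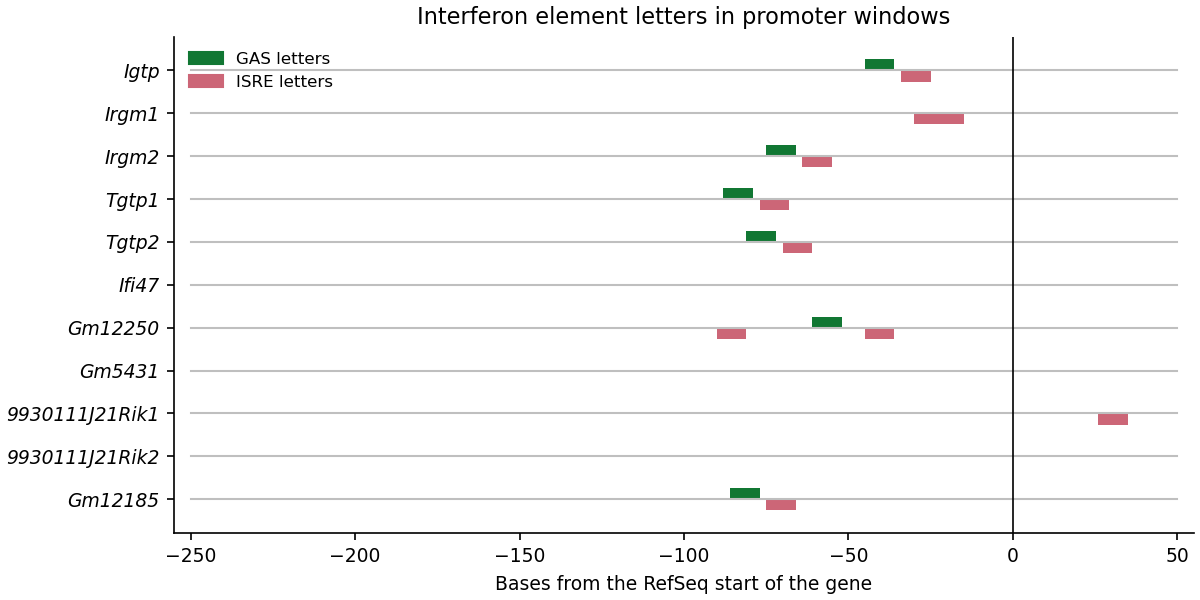
Position of the GAS letters (green, above the line) and ISRE letters (pink, below the line) in the RefSeq promoter windows of 7 members and 4 related genes, in bases from the start of the gene (vertical line). The 2 motifs stand side by side in the same order in Igtp, Irgm2, Tgtp1, Tgtp2 and Gm12185, and Ifi47, Gm5431 and 9930111J21Rik2 hold neither.

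Library totals ran from 22141522 to 28734798 reads. By the summed CPM of marker lists, oligodendrocyte precursor genes were at 2314 to 3249 in Control and 3144 to 3753 in EAE, pericyte and smooth muscle genes at 3572 to 6166 and 522 to 944, endothelial genes at 889 to 1440 and 192 to 246, and genes of mature oligodendrocytes at 24788 to 29320 and 20321 to 36833. Genes of endothelium and mature oligodendrocytes, which do not express NG2 themselves, were thus detected too, and the endothelial and mural sums were lower in every EAE library. Of 7 tested precursor genes 1 rose, Vcan, from 487 ± 138 to 1168 ± 159 CPM (edgeR adjusted p = 0.0136, and up to 0.0657 without 1 library). The median log2 fold change of the precursor list was -0.000156. Cspg4, which encodes NG2, was lower in every EAE library, at 359 ± 14.1 CPM in Control and 206 ± 72.4 CPM in EAE (edgeR adjusted p = 0.0764). Genes of committed oligodendrocytes, an early stage of differentiation, summed to 454 to 640 CPM in Control and 1470 to 1725 CPM in EAE, and 3 of 4 rose (Enpp6, Gpr17 and Tcf7l2). The astrocyte gene Gfap rose 8.81-fold (edgeR adjusted p = 0.00876, and 0.0512 without Control replicate 2), as 1 of 5 astrocyte markers. In bulk samples, fewer cells of a type and less RNA per cell cannot be told apart. Myeloid and T cell markers are given beside the family values below.

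Among the GMS regulators, Igtp (Irgm3) protects lipid droplets and endoplasmic reticulum from the GKS proteins, and it had the highest EAE level of the family. It was at 10.2, 7.03 and 10.2 CPM in Control replicates 1, 2 and 3 and at 129, 148 and 452 CPM in EAE replicates 1, 2 and 3. Each EAE library was at least 12.6 times the highest Control library. The means were 9.14 ± 1.83 and 243 ± 181 CPM, a 26.5-fold difference (log2 fold change 4.73 ± 0.51, SE from the edgeR fit here and throughout), and 15.1-fold without EAE replicate 3. Igtp (ENSMUSG00000078853) lies on chromosome 11 at 58199556 to 58207591 on the plus strand (GRCm38/mm10), and 8.01% of its exonic bases also belong to Irgm2, and 11.8% of its runs of 50 transcript bases recur in Irgm2, so its reads are in part uncertain.

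Irgm1, which sits on the Golgi and on lysosomes and whose loss destabilises the GKS proteins, was at 7.31, 4.98 and 4.62 CPM in Control and 49.1, 50.8 and 244 CPM in EAE. Its difference was 20.3-fold (log2 fold change 4.34 ± 0.67), and 8.86-fold without EAE replicate 3. Irgm2, a Golgi-associated regulator, had the highest Control mean of the family in CPM, at 27.4, 13.4 and 14.7 CPM in replicates 1, 2 and 3, and was at 111, 120 and 292 CPM in EAE. This made its 9.42-fold difference (log2 fold change 3.236 ± 0.44) the smallest of the 10 over all libraries, and it was 6.23-fold without EAE replicate 3, where Ifi47 had the smallest. In all 3 GMS genes EAE replicates 1 and 2 were close to each other and replicate 3 was far above both. Irgm1 (ENSMUSG00000046879) lies at 48861968 to 48871683 on the minus strand of chromosome 11, and Irgm2 (ENSMUSG00000069874) at 58199618 to 58222782 on the plus strand. The bounds of Irgm2 take in nearly all of Igtp, 4.39% of the exonic bases of Irgm2 belong to Igtp as well, and 7.83% of its runs of 50 transcript bases recur in other genes, so its reads are in part uncertain too.

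**Figure D2:**
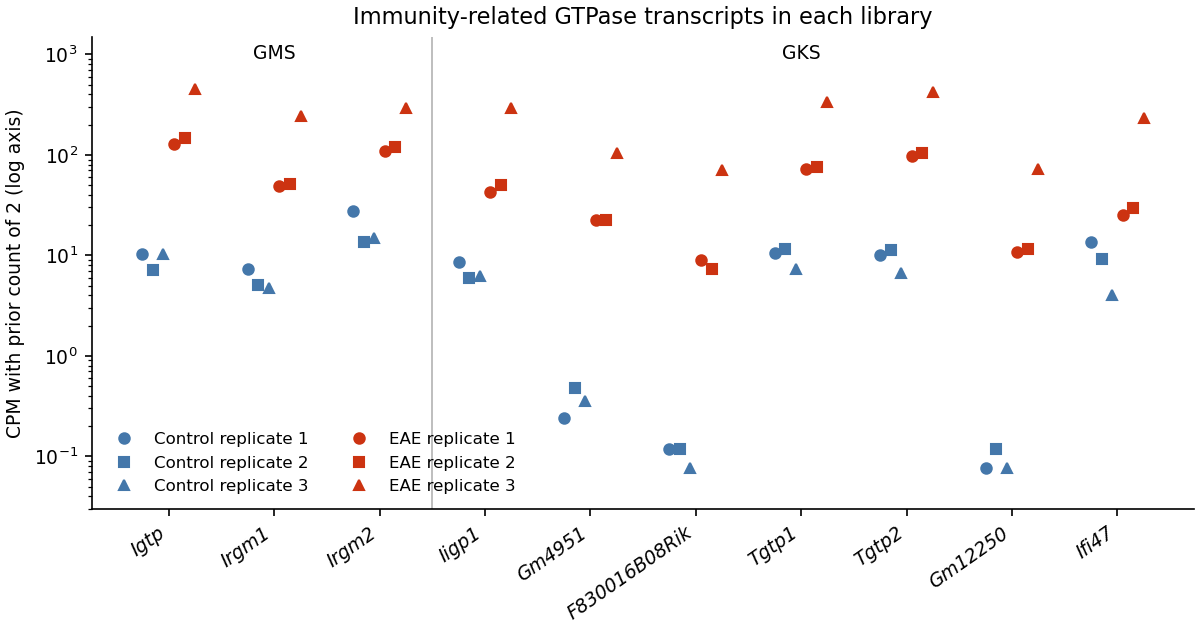
CPM of the 10 members in each of the 6 libraries on a log axis, with a prior count of 2 reads so that libraries without reads can be drawn. Blue marks Control and red EAE, the marker shape gives the replicate, and the grey line parts the 3 GMS from the 7 GKS genes. Every red point lies above every blue point of its gene, EAE replicate 3 is the highest in all 10, and Gm4951, F830016B08Rik and Gm12250 are near 0 in Control.

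Tgtp1 and Tgtp2 (both encode Irgb6, a GKS effector that is among the first to reach the vacuole) are near-identical copies. Of all runs of 50 bases in Tgtp1 transcripts 79.4% also occur in Tgtp2, and of those in Tgtp2 85.8% occur in Tgtp1, so their single values are uncertain and their sum is the safer measure. The sum was 20.4, 22.6 and 13.8 CPM in Control and 170, 180 and 757 CPM in EAE. This was a 19.5-fold difference, and in EAE the sum exceeded every other member in each library. Taken singly, Tgtp1 differed 16.5-fold and Tgtp2 22.5-fold, and 7.65-fold and 10.9-fold without EAE replicate 3. Tgtp1 (ENSMUSG00000078922) lies on chromosome 11 at 48985327 to 48994172 and Tgtp2 (ENSMUSG00000078921) at 49057194 to 49064206, both on the minus strand, and 6.96% of the exonic bases of Tgtp1 belong to Gm12185 as well.

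Iigp1 (Irga6), the member whose GTPase cycle and structure are known best, was at 8.58, 5.91 and 6.15 CPM in Control and 42.4, 49.6 and 293 CPM in EAE. Its difference was 18.7-fold (log2 fold change 4.22 ± 0.77), and 6.69-fold without EAE replicate 3. Ifi47 (Irgd), a GKS gene that lies beside Tgtp2, was the member with the least clear separation. It was at 13.4, 9.20 and 3.93 CPM in Control and 25.1, 29.6 and 233 CPM in EAE, so that its lowest EAE value was only 1.88 times its highest Control value. Its 10.9-fold difference (log2 fold change 3.44 ± 0.91) was 3.10-fold without EAE replicate 3. Iigp1 (ENSMUSG00000054072) lies on chromosome 18 at 60376027 to 60392634, and Ifi47 (ENSMUSG00000078920) on chromosome 11 at 49076587 to 49096974, where 8.77% of its exonic bases also belong to other genes.

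For 3 GKS genes Control was near 0. Gm12250 encodes Irgb10, which in mouse macrophages attacks the envelope of bacteria and exposes their contents to inflammasomes. The reads numbered 0, 1 and 0 in Control and 293, 308 and 2198 in EAE, in replicate order, a ratio of 2356 (95% counting interval 423 to 93094). F830016B08Rik had 1, 1 and 0 reads in Control and 244, 195 and 2120 in EAE, a ratio of 1077 (95% counting interval 298 to 8898). These exact intervals pool the reads of the 3 libraries of each group and treat every read as independent. They leave out the spread between libraries. Reads copied by PCR do not each stand for a molecule, which would make the intervals too narrow even for counting error. Gm4951 had 4, 10 and 6 reads in Control and 610, 606 and 3126 in EAE, which is 0.281 ± 0.119 against 49.6 ± 46.9 CPM and a 176-fold difference, or 80.0-fold without EAE replicate 3.

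EAE replicates 1 and 2 were at 10.8 and 11.5 CPM for Gm12250, 8.98 and 7.26 CPM for F830016B08Rik and 22.4 and 22.6 CPM for Gm4951, so the near-absence in Control and the presence in EAE did not rest on EAE replicate 3. These 3 genes passed the filter on low counts through the EAE libraries, and 2 of them, Gm4951 (ENSMUSG00000073555, 60212080 to 60247820) and F830016B08Rik (ENSMUSG00000090942, 60293380 to 60303016), lie near Iigp1 on chromosome 18. Gm12250 (ENSMUSG00000082292) is annotated in GENCODE as a processed pseudogene at 58187739 to 58189012 on chromosome 11, with 1274 exonic bases, whereas the deposited table gives it 2702 bases and RefSeq lists it as protein coding. The counts of Gm12250 therefore rest on a gene model other than the GENCODE one used here for coordinates.

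By the edgeR quasi-likelihood test 9 of the 10 members passed an adjusted p of 0.05, all higher in EAE, and Ifi47 did not. Of all 16966 tested genes 2.82% were called higher and 7.14% in either direction, and 13.3% had every EAE library above every Control library. Since the members were picked with this contrast known, nothing is read from these counts. The number of members past the threshold was 6 without Control replicate 1 or 3, 8 without Control replicate 2, 10 without EAE replicate 1 or 2, and 9 without EAE replicate 3. The median log2 fold change was 4.42 over the members and 0.004 over all tested genes.

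The EAE libraries were far from alike. EAE replicates 1 and 2 had summed family levels of 568 and 619 CPM, and replicate 3 had 2518 CPM, against 87.5, 63.6 and 53.6 CPM in the Control libraries. The ratio of EAE replicate 2 to replicate 1 ran from 0.808 to 1.18 over the 10 members. The ratio of EAE replicate 3 to the mean of the other EAE libraries ran from 2.54 for Irgm2 to 8.66 for F830016B08Rik. It was 2.54 to 4.88 in the 3 GMS genes and 4.21 to 8.66 in the 7 GKS genes, with Ifi47 at 8.52, Gm12250 at 6.55 and Iigp1 at 6.37. The GMS total was 289, 318 and 987 CPM and the GKS total 279, 300.4 and 1530.2 CPM in EAE replicates 1, 2 and 3, so the classes had about equal totals in replicates 1 and 2 and the GKS total was the higher in replicate 3.

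Levels of different genes were compared per length, as CPM per kilobase of the length given in the deposited table. In Control the order of the mean level per kilobase was Irgm2, Igtp, Ifi47, Tgtp2, Tgtp1, Iigp1, Irgm1, Gm4951, F830016B08Rik and Gm12250, from 5.11 ± 2.15 down to 0.00496 ± 0.00859. Neighbours in this order overlapped in range from Irgm2 through Iigp1, and again F830016B08Rik with Gm12250, whereas Iigp1, Irgm1, Gm4951 and F830016B08Rik were separated from each other. The separation of Iigp1 from Irgm1 depended on the length used. The deposited table gives Iigp1 3121 bases, and GENCODE gives it 5823 exonic bases. With the latter Iigp1 was at 1.01 to 1.47 CPM per kilobase in Control and overlapped Irgm1 at 0.796 to 1.26. It then no longer overlapped Tgtp1, whose lowest Control value was 2.24. Gm12250, by its GENCODE length, ranked above F830016B08Rik in Control, with overlapping ranges. In EAE Igtp came first at 120.0 ± 89.6 CPM per kilobase, followed by Tgtp2, Tgtp1, Irgm2, Ifi47, Iigp1, Irgm1, Gm4951, Gm12250 and F830016B08Rik, and every pair of neighbours overlapped in range. With GENCODE lengths Gm12250 moved from 11.7 to 24.9 CPM per kilobase and Iigp1 from 41.2 to 22.1, so that Gm12250 ranked above Iigp1. The lengths of Irgm2 and Ifi47 also differ between these sources, by less.

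As shares of the family total per kilobase within a library, with the deposited lengths, some members kept their place and others moved. Irgm1 took 4.00% to 4.38% of the total in Control and 4.02% to 4.79% in EAE. Igtp took 16.2% to 27.8% in Control and 25.5% to 33.6% in EAE, Ifi47 9.34% to 19.8% and 5.47% to 11.5%, so both overlapped between the groups. Irgm2 took 17.2% to 26.01% in Control and 9.21% to 15.4% in EAE, and Gm4951 0.213% to 0.708% and 3.92% to 4.47%, in each case without overlap. Igtp and Irgm2 share some bases, so their single shares are in part uncertain. Together they took 33.4% to 50.1% in Control and 34.7% to 48.8% in EAE, with overlap. The 3 GMS genes together took 37.4% to 54.5% in Control and 39.5% to 52.8% in EAE. With GENCODE lengths the share of Iigp1 in EAE was 3.74% to 5.89%, against 6.86% to 10.7% with the deposited length, and that of Gm12250 4.22% to 6.69%, against 1.95% to 3.08%.

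**Figure D3:**
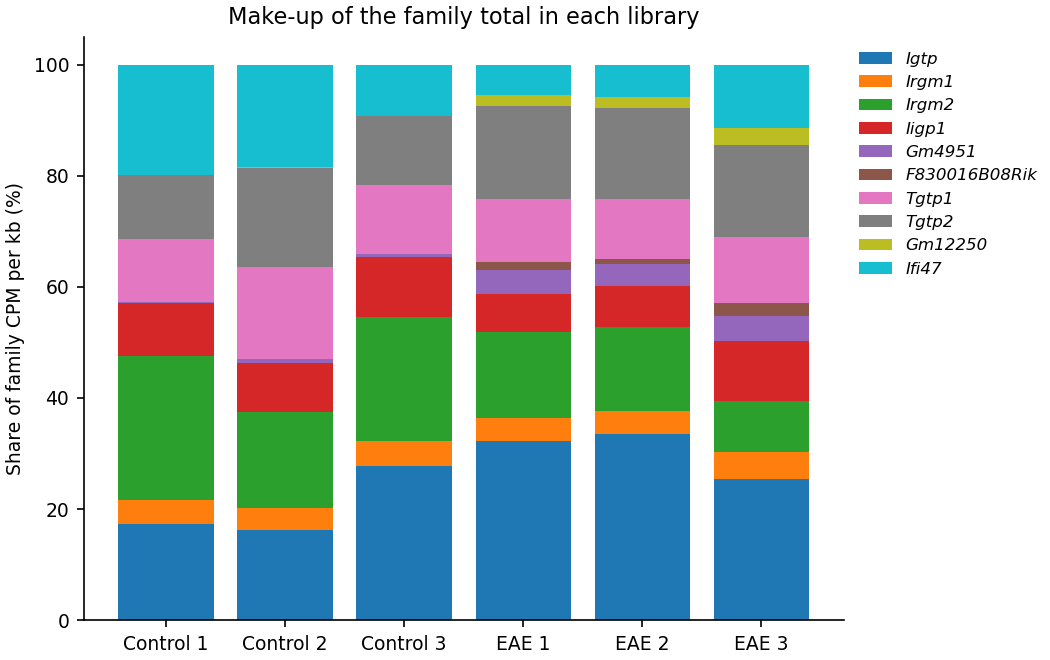
Share of each member in the family total of CPM per kilobase, in percent, for the 3 Control and the 3 EAE libraries. Igtp (blue) takes 25.5% to 33.6% in EAE, the share of Irgm2 (green) is lower in EAE than in Control, and those of Gm4951, F830016B08Rik and Gm12250 are visible in EAE.

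Markers of immune cells differed between the same libraries. The summed level of 14 myeloid markers was 32.9, 25.6 and 34.6 CPM in Control replicates 1, 2 and 3 and 161, 35.6 and 385 CPM in EAE replicates 1, 2 and 3. None of these markers had 0 reads in an EAE library, and C1qa in Control replicate 2 and Fcer1g in Control replicate 3 were at 0. Of the 13 tested myeloid markers 3 rose, namely Ptprc (the pan-leukocyte phosphatase CD45), Tyrobp (a signalling adaptor) and Lyz2 (lysozyme), and none fell. Ptprc and Tyrobp lost their call in 5 of the 6 fits that each left out 1 library (adjusted p up to 0.150 and 0.114), and Lyz2 in the 3 fits without a Control library (up to 0.105). Lyz2 alone gave 90.7, 6.29 and 219 CPM of the myeloid sums in EAE replicates 1, 2 and 3. The 10 T and natural killer cell markers summed to 0.362 to 0.878 CPM in Control, with 7 to 9 of the 10 at 0, and to 1.99, 0.558 and 17.97 CPM in EAE, with 2, 7 and 1 at 0. Cd3e, which encodes a CD3 chain of the T cell receptor complex, had 12, 0 and 271 reads in EAE replicates 1, 2 and 3 and none in Control. It alone gave 8.99 of the 17.97 CPM in EAE replicate 3. In the same order Cd3d had 1, 0 and 2 reads, Cd3g 6, 0 and 9 and Trbc2 1, 0 and 92, with none in Control. Cd8a went the other way, with 19 reads in Control replicate 3 and none in EAE.

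In EAE replicate 2 the myeloid sum was 35.6 CPM, against 25.6 to 34.6 CPM in the Control libraries, and the family sum of 619 CPM was 9.06 times the Control mean. This sum held genes that differed in opposite directions. The microglial genes P2ry12 and Tmem119 had 5 and 7 reads in this library against 14 to 153 and 28 to 49 in Control, whereas Lyz2 had 169 against 1 to 29 and Ptprc 14 against 3 to 5. Cd3e had 0 reads. In that library Igtp was at 16.1 times its Control mean, Tgtp2 at 11.3, Irgm1 at 9.01, Tgtp1 at 7.81, Iigp1 at 7.21, Irgm2 at 6.48 and Ifi47 at 3.35. The higher level in EAE replicate 3, where the myeloid and T cell sums were also the highest, was seen for all 10 members, and the part of immune cells in the family level of any EAE library was not tested.

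**Figure D4:**
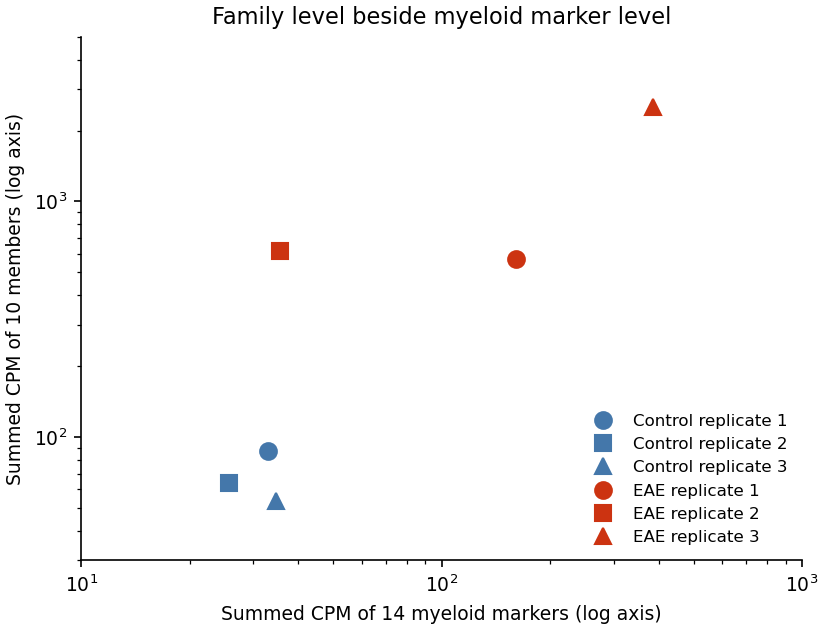
Summed CPM of the 10 members against the summed CPM of 14 myeloid markers, 1 point per library, both on log axes. Blue is Control, red is EAE and the shape gives the replicate. EAE replicate 2 has a myeloid sum of 35.6 CPM, near that of the Control libraries, and a family sum of 619 CPM, and EAE replicate 3 is the highest on both axes. Of the myeloid sums in EAE replicates 1, 2 and 3, Lyz2 alone gives 90.7, 6.29 and 219 CPM.

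The list held 6 other genes of the family, of which 5 were tested and 1 rose. Gm12185, which RefSeq also names Irgb2b1, was at 2.34, 3.42 and 1.43 CPM in Control and 16.3, 12.2 and 108 CPM in EAE, a 19.0-fold rise (log2 fold change 4.24 ± 0.87, edgeR adjusted p = 0.0231). The fold was 5.95 without EAE replicate 3, and leaving out any 1 Control library ended the call (adjusted p up to 0.13). Irgq, a divergent relative that is not a classical interferon target, was at 52.8 ± 4.12 and 60.9 ± 1.91 CPM (adjusted p = 0.496). The other 3, named after their values were seen, were 9930111J21Rik1, 9930111J21Rik2 and Gm5431, and none of them passed the test.

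9930111J21Rik1 was at 34.1, 31.5 and 32.6 CPM in Control and 22.3, 18.5 and 72.6 CPM in EAE, and 9930111J21Rik2 at 46.4, 39.1 and 35.8 and at 29.2, 27.2 and 108 CPM. Gm5431 was at 8.13, 3.82 and 8.88 CPM in Control and 4.23, 3.31 and 14.99 CPM in EAE. All 3 were thus lower in EAE replicates 1 and 2 than their Control mean and higher in replicate 3, unlike the 10 members, and their adjusted p-values were 0.863, 0.695 and 0.945. The longest reading frames of these 3 genes and of Gm12185 hold 2 P-loops each, where each of the 10 members has 1. In the promoter windows described above Gm12185 held the GAS and ISRE letters at the shared spacing, Gm5431 and 9930111J21Rik2 held neither motif, and 9930111J21Rik1 held the ISRE letters after its start. Counts of 9930111J21Rik1 and 9930111J21Rik2 are uncertain, since 80.4% of the 50-base runs of the first occur in the second. Those of Gm5431 are in part uncertain too, since 37.3% of its runs recur in other genes, and 27.2% in 9930111J21Rik1. The shared pattern of these 3 genes is therefore not that of 3 fully separate measurements.

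**Figure D5:**
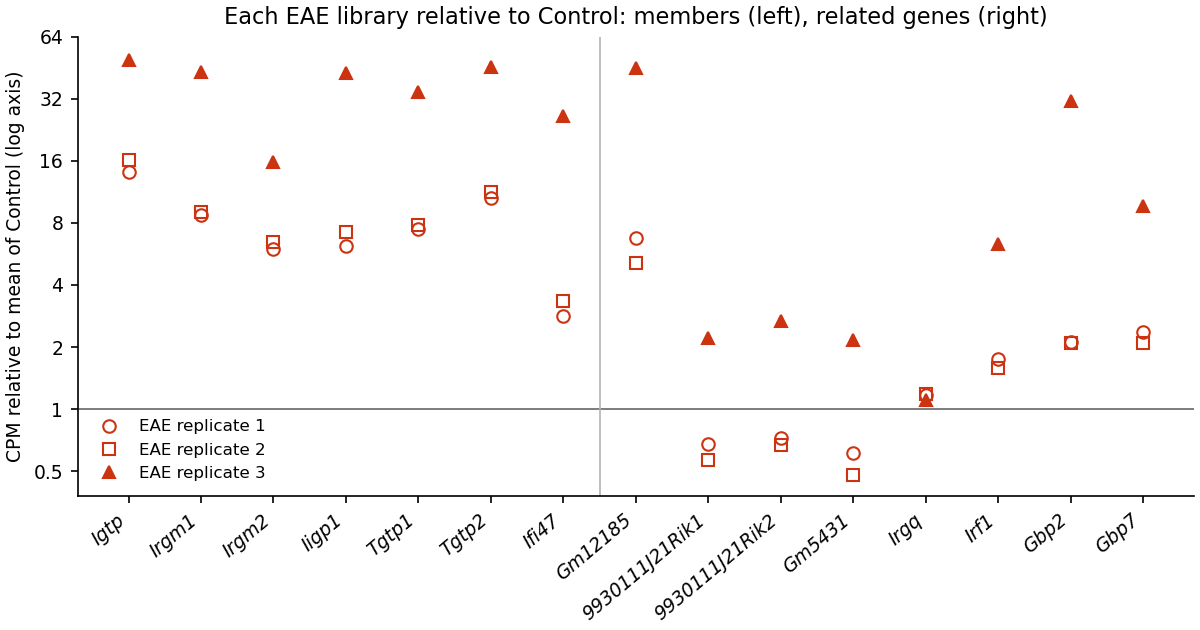
CPM of each EAE library divided by the Control mean, on a log axis with 1 marked by the line, for the 7 members with over 1 CPM in Control (left) and for related family genes, Irf1, Gbp2 and Gbp7 (right). Open symbols are EAE replicates 1 and 2 and filled triangles replicate 3. In replicates 1 and 2 the members sit between 2.84 and 16.1, whereas 9930111J21Rik1, 9930111J21Rik2 and Gm5431 are under 1.

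Genes of the interferon gamma pathway were described beside the family. Nlrc5, the transactivator of MHC class I genes, rose 21.2-fold from 1.82 ± 0.85 to 38.6 ± 25.1 CPM (adjusted p = 0.00287). The call held when any 1 library was left out, and the fold was 13.3 without EAE replicate 3. The ligand gene Ifng had 0, 0 and 4 reads in EAE and none in Control, so its level could not be measured at this depth, and it was not tested. The receptor chain gene Ifngr1 was at 24.9, 26.6 and 24.7 CPM in Control and 15.7, 17.3 and 17.7 CPM in EAE (adjusted p = 0.106), and the transcription factor gene Irf1 at 8.38, 7.23 and 8.32 and at 13.98, 12.6 and 50.1 CPM (adjusted p = 0.0918). Both were named after their values were seen.

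In the type I interferon pathway 8 of 9 listed genes were tested, 2 rose and 1 fell (median log2 fold change 0.47). Usp18, a protease that removes ISG15 and dampens the receptor, rose 5.65-fold (adjusted p = 0.00950, and 0.0531 without Control replicate 2). Irf9, a DNA-binding subunit of the complex that acts on ISRE elements, rose 2.89-fold (adjusted p = 0.0417) and lost its call in 5 of the 6 fits that each left out 1 library (adjusted p up to 0.160), keeping it only without EAE replicate 2. Ifnar1, a chain of the receptor, fell 1.89-fold from 80.0 ± 4.65 to 42.3 ± 2.87 CPM (adjusted p = 0.00714), also without any 1 library. Ifnb1 had 0 reads in all 6 libraries, which allows up to 3 reads per library.

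The guanylate-binding proteins, larger GTPases that act on the same vacuoles, had 8 of 11 listed genes in the table. Of these 1 rose, with a median log2 fold change of 2.26. Gbp7 was at 28.99, 30.7 and 26.3 CPM in Control and 68.2, 60.0 and 278 CPM in EAE, a 4.72-fold rise (adjusted p = 0.0411) that was 2.24-fold without EAE replicate 3. The call ended when any 1 Control library was left out, with an adjusted p of up to 0.183. Gbp2 was at 15.8, 15.2 and 9.57 CPM in Control and 28.5, 28.2 and 422 CPM in EAE (adjusted p = 0.0879). Its ratio to Control was 11.8 over all libraries and 2.09 without EAE replicate 3, and without that library the members with over 1 CPM in Control ran from 3.10 for Ifi47 to 15.1 for Igtp. The difference between the families was not tested.

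Of 18 antiviral interferon-stimulated genes 2 rose (median log2 fold change 1.26), namely Ifit2, which binds foreign RNA, 3.40-fold (adjusted p = 0.0248), and Xaf1, a gene linked to cell death, 2.02-fold (adjusted p = 0.0324). Neither call held when any 1 Control library was left out, and that of Xaf1 also ended when EAE replicate 2 was. The adjusted p reached 0.0964 for Ifit2 and 0.124 for Xaf1. EAE replicate 3 had the highest EAE value in all 18, as it had in all 10 members and all 8 guanylate-binding protein genes.

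The ATG8 conjugation system guides GKS proteins and guanylate-binding proteins to vacuoles. None of its 10 genes passed the edgeR test, and the median log2 fold change was -0.19. Map1lc3b, which encodes LC3B, was at 156 ± 11.4 and 127 ± 20.1 CPM (adjusted p = 0.355), and Gabarapl1, a related ATG8 gene, at 90.2 ± 16.6 and 89.7 ± 22.1 CPM (adjusted p = 0.989). Nor did any of 10 autophagy adaptor and regulator genes pass, with the cargo receptor genes Nbr1 at 171 ± 18.1 and 183 ± 17.8 CPM and Sqstm1 at 153 ± 3.76 and 137 ± 26.9 CPM (adjusted p = 0.795 and 0.660). In the inflammasome list, whose sensors respond to bacterial contents that Irgb10 exposes, none of 5 tested genes passed. The sensor gene Aim2 was at 6.49 ± 1.57 and 3.96 ± 1.22 CPM and the cytokine gene Il18 at 11.4 ± 1.01 and 11.5 ± 2.67 CPM (adjusted p = 0.352 and 0.989). The 3 untested genes of this list had few reads outside EAE replicate 3. The cytokine gene Il1b had no reads in Control and 35, 5 and 649 in EAE replicates 1, 2 and 3, and the sensor gene Nlrp3 none in Control and 6, 0 and 157 in EAE. Casp1, the inflammasome protease gene, had 2, 0 and 14 reads in Control and 8, 1 and 135 in EAE.

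The genes whose pattern over the 6 libraries came nearest to the mean profile of the members, by the root mean square distance of log2 CPM centred on each gene's own mean, were C4b, Nlrc5, Gm12185, Tap1 and Piezo2, at distances of 0.62, 0.69, 0.70, 0.71 and 0.74. The members themselves lay at 0.35 (Tgtp2) to 1.57 (Gm12250) from that profile. C4b, a complement component with a close copy that can share its reads, was at 46.0, 49.2 and 61.8 CPM in Control and 946, 819 and 1542 CPM in EAE. Tap1, a peptide transporter of the class I pathway, was at 2.38, 7.11 and 2.68 and at 34.0, 30.4 and 123 CPM, and Piezo2, a mechanically gated channel, at 1.40, 1.29 and 0.601 and at 64.7, 16.9 and 116 CPM.

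Within 100 kb of the members lay 32 other genes with a symbol, outside the family lists, of which 15 were tested. The choice of this distance was made after the values were seen. Of the 15, 2 rose, Gm4841 (also named Ifgga3 in RefSeq) with 2 reads in Control and 69, 36 and 352 in EAE, and the pseudogene Gm5970 with 1 read in Control and 24, 26 and 123 in EAE (adjusted p = 0.00922 and 0.0164). Gm5970 lies within the bounds of Gm4951, and Gm4841 between Gm4951 and F830016B08Rik. By its RefSeq name Gm4841 is itself an interferon gamma-inducible GTPase, so neighbours outside the family lists are not all outside the family. None of the tested neighbours on chromosome 11 passed. The log2 fold changes of the 15 ran from -0.60 to 7.29, and the largest on chromosome 11 was that of Olfr56, named after its values were seen. Olfr56 was at 0.944, 1.005 and 0.231 CPM in Control and 1.14, 1.71 and 15.7 CPM in EAE, and it shares 111 exonic bases with Ifi47. Its log2 fold change was 3.08 ± 1.06, with an edgeR adjusted p of 0.134.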

How the data were processed

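The authors deposited raw read counts per Ensembl gene, whole numbers in 1 column per library, with a gene length in base pairs, which was used for values per kilobase. Per the submitters' processing notes, which give no role or order, the tools were FastQC, STAR, featureCounts and edgeR 3.24.3 and the build was mm10. Annotation release, strand and multiply matching reads are not described there. Symbols were found for 36345 of 38293 identifiers through GENCODE M21 (GRCm38), which also gave coordinates and transcripts.

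Genes kept by filterByExpr (minimum count 10, minimum total 15) numbered 16966. Scaling was by TMM, and the test was the 2-sided quasi-likelihood F of edgeR 4.0.16 in R 4.3.3, with Benjamini-Hochberg adjustment over all tested genes and a threshold of 0.05. The code was tested on simulated data. CPM used the scaled library sizes, folds are ratios of mean CPM, and SE is the log2 fold change over the square root of F. Alternatives were other scalings, no filter, DESeq2 1.42.0, limma 3.58.1 with voom, the replicate number as a block and leaving out each library. The members and the lists were chosen with earlier results of these data known. Named genes were all members, up to 4 called genes of each pathway list by size of change (with the most abundant ones to make 2), and the 5 non-members of at least 10 CPM nearest to the mean member profile. The result of 1 gene of the interferon gamma list, and the counts of that list, are not reported here.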

Additional observations from a re-analysis of the deposited data

How the results depend on the processing

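All 10 members kept a higher level in EAE under the 13 alternatives run. The number of genes called, 1212 in all, was 2162 by DESeq2 and ran from 440 to 1150 when 1 library was left out. Of the 10 members 9 were called, against 5 with no filter on low counts and 5 by limma-voom, and 6 to 10 without 1 library. DESeq2 called 8 and gave no adjusted p for Ifi47 and F830016B08Rik. Of the pathway list genes 9 were called, against 20 by DESeq2, 4 by limma-voom and 3 to 13 without 1 library. The causes were not tested. The same-numbered libraries did not deviate together from their group means (correlations of 0.0157, -0.0399 and -0.0336), so the numbers were not taken as pairs. With the replicate block 818 genes, 9 members and 5 pathway list genes were called. Without EAE replicate 3 the log2 fold changes of the members ran from 1.64 for Ifi47 to 9.20 for Gm12250, each smaller than over all libraries. With 3 libraries a group, depth limits the 3 members near 0 in Control, whose folds rest on 20 Control reads or fewer. Lengths from GENCODE, an alternative chosen after seeing the data, moved the Control level per kilobase of Iigp1 from 2.20 to 1.18 CPM.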
